A study of Mus musculus with 6 samples.

Results

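MAPK cascade kinases relay signals from the cell surface to the nucleus by phosphorylating each other in sequence. The tiers run from MAP4K and MAP3K (RAF kinases included) to MAP2K, then to MAPK, and last to the MAPK-activated kinases. Here 40 such mouse genes were taken from a written list of symbols and were looked up among the 23504 genes of an FPKM table (fragment counts scaled to exon length and to the size of the library). All 40 were found. The rule itself uses no expression value, although the list was written with earlier results of these data known. RNA had been sequenced from bone marrow-derived macrophages (BMMs) of C57BL/6 mice, grown with M-CSF, after 3 days with DASA-58, an activator of the glycolytic enzyme PKM2, or with its solvent DMSO. There were 3 libraries in each group. The study's results describe RANKL induction in both groups, whereas its methods do not say clearly whether the DMSO cells received RANKL, and they give no concentration of DASA-58 for this experiment. The labels do not say that the libraries came from separate cultures or mice, so p-values measure only the spread between these libraries, which may be technical.

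RANKL, the cytokine that drives macrophages to become osteoclasts, binds its receptor RANK and recruits TRAF adaptors, from which TAK1 and other MAP3Ks switch on 3 main branches named after their MAPKs, ERK, JNK and p38. In these cells the branches are known for raising AP-1 transcription factors such as FOS and for activating MITF, both of which act on osteoclast genes. The cascade works through phosphorylation. The values below are RNA levels and say nothing of kinase activity.

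A MAPK is switched on when its MAP2K phosphorylates a threonine and a tyrosine in the activation segment, the loop beside its active site. The coding sequences of that segment are shown for the MAPKs among the 40 kinases other than Mapk3, because the middle residue of the threonine-X-tyrosine motif differs between ERK-type, JNK and p38 kinases, and because the kinase with the largest change, Mapk6, has another motif. They were read from the GENCODE mouse release 21 transcripts, 45 bases each, with the 3 codons of the motif in capitals.

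Mapk7: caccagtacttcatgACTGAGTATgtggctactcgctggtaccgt

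Mapk8: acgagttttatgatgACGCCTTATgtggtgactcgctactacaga

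Mapk9: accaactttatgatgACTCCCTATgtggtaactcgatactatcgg

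Mapk14: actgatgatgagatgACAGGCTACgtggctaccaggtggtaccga

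Mapk11: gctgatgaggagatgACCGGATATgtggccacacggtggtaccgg

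Mapk13: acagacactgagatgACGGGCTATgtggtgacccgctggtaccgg

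Mapk6: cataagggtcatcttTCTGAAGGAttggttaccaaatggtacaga

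The capitals encode threonine-glutamate-tyrosine in Mapk7 (ERK5), threonine-proline-tyrosine in the JNK genes Mapk8 and Mapk9, threonine-glycine-tyrosine in the p38 genes Mapk14, Mapk11 and Mapk13, and serine-glutamate-glycine in Mapk6 (ERK3), which lacks the tyrosine. Mapk14 and Mapk11 shared 36 of 45 bases, Mapk8 and Mapk9 shared 35, and Mapk6 shared between 17 (Mapk8 and Mapk9) and 24 (Mapk14) with the others.

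The libraries held between 18191560 and 18968556 fragments, recovered from the steps of the FPKM values, so that 3 fragments on a kilobase of exon correspond to between 0.158 and 0.165 FPKM. All 10 macrophage markers passed the filter, with summed FPKM between 16560 and 17400 with DMSO and between 17510 and 19820 with DASA-58, most of it from Lyz2, which was not called. Of these markers, 4 rose and 1 fell (limma, Benjamini-Hochberg adjusted p under 0.05). All 9 tested of 10 osteoclast markers fell, and their summed FPKM lay between 777.8 and 833.4 with DMSO and between 449.1 and 467.3 with DASA-58. Of 8 neutrophil markers 7 were tested, 2 fell and 1 rose (summed FPKM 54.8 to 59.3 with DMSO and 47.3 to 50.6 with DASA-58), whereas markers of erythroid, mast and dendritic cells summed to under 1 FPKM in every library. Stromal markers summed to 34.97 to 37.24 FPKM with DMSO and 35.58 to 36.65 FPKM with DASA-58, T and NK cell markers to between 5.88 and 6.84 FPKM and B cell markers to between 1.71 and 2.38 FPKM over all libraries. No marker found in the table was at 0 in all 6 libraries. The part of these shifts in the kinase values below was not tested, and in bulk RNA fewer cells of a type and less RNA per cell cannot be told apart.

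The kinases differed widely in level. Mapkapk2 (MK2, the p38-activated kinase known for stabilizing cytokine mRNAs) was highest with a mean of 116.8 FPKM over the 6 libraries, above 98.2% of all genes in the table. Mapk3 (ERK1) followed with 101.3 FPKM, Mapk14 (p38α) with 59.7 FPKM and Map3k11 (MLK3, a MAP3K of the JNK branch) with 47.4 FPKM. No library of one of these 4 genes overlapped a library of the next in that order. Further down, Map2k5 (12.7 FPKM) and Mapkapk3 (12.6 FPKM) had overlapping libraries. The mean of 3 kinases stayed under the 1 FPKM needed for the test, namely Map3k6 (ASK2, 0.977 FPKM), Mapk13 (p38δ, 0.397 FPKM) and Mapkapk5 (MK5, the partner kinase of ERK3, 0.384 FPKM), which left 37 tested.

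**Figure D1:**
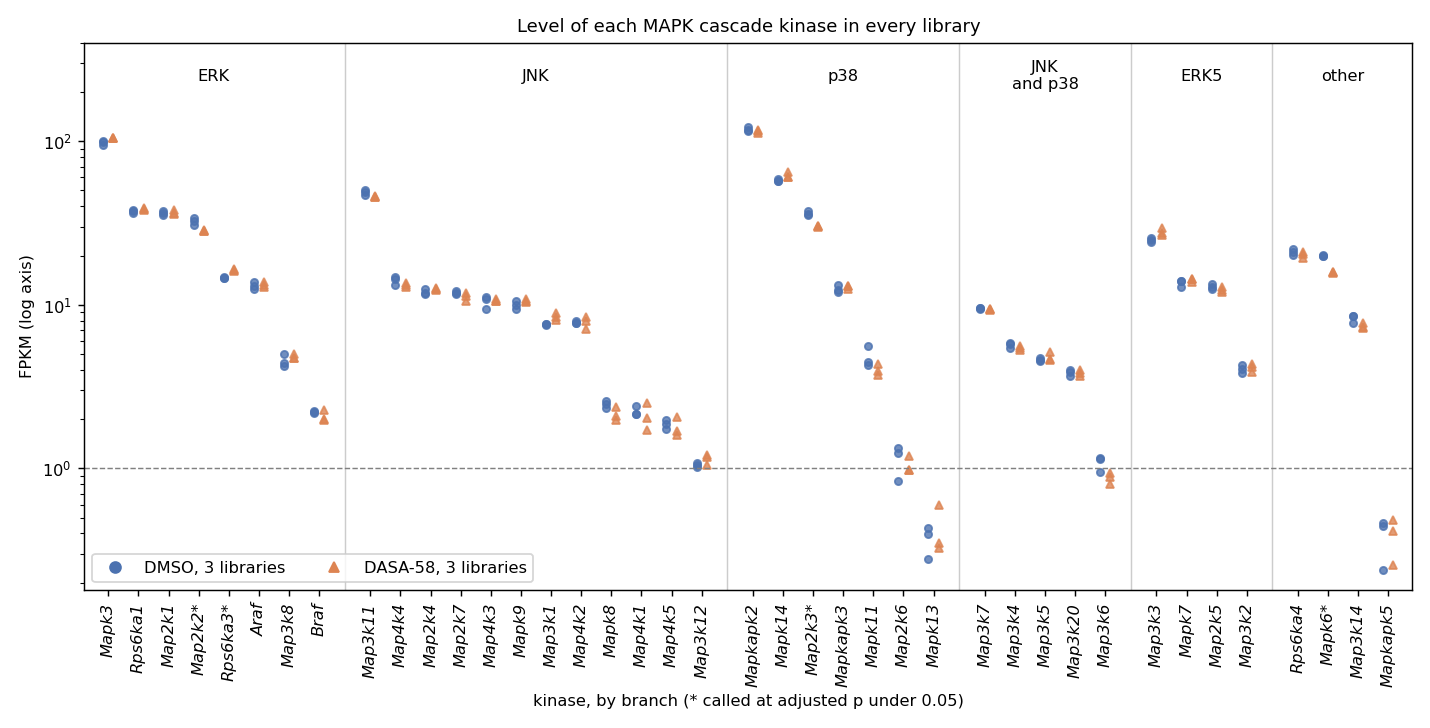
FPKM on a log axis for each of the 40 kinases, grouped by branch and ordered by mean level, with 1 circle for each of the 3 DMSO libraries and 1 triangle for each of the 3 DASA-58 libraries. The levels run from 0.384 FPKM (Mapkapk5) to 116.8 FPKM (Mapkapk2), and within most genes both groups lie close together. The dashed line marks 1 FPKM, and an asterisk marks the 4 kinases called.

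Of the 37 kinases tested, 3 fell with DASA-58 (Mapk6, Map2k3 and Map2k2), 1 rose (Rps6ka3) and 33 were not called (limma on log2(FPKM + 1), Benjamini-Hochberg adjusted p under 0.05 over 10965 genes). That is 10.8% of the kinases, near the 11.5% called among all genes tested, of which 7.28% were called lower and 4.24% higher. The groups did not overlap for 12 kinases, 6 with every DASA-58 library below every DMSO library and 6 above, or 32.4% against 33.4% of all genes (21.6% below and 11.8% above). The median log2 fold change was -0.01 over the kinases and -0.03 over all genes tested, and the median size of change was 0.06 and 0.08. The changes were small throughout, from -0.31 for Mapk6 to 0.16 for Map3k3.

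The balance of directions depended on the scaling between libraries. Without scaling 798 genes were called lower and 465 higher, 63.2% of the calls being lower. With each library centred on its median the calls were 504 lower and 597 higher (45.8% lower), and under quantile normalization 588 lower and 600 higher (49.5% lower). The kinases moved likewise, from 3 lower and 1 higher to 2 lower and 3 higher with centring (Mapk3 and Map3k3 being added and Map2k2 lost), and to 2 lower and 4 higher under quantile normalization (Map3k1 being added).

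The 33 kinases that were not called had intervals of different widths. For 30 of them the 95% interval of the log2 fold change on the log2(FPKM + 1) scale stayed within 0.3 of zero on either side, and for 22 it stayed within 0.2. Only Map4k1, Map2k6 and Mapk11 reached further, Mapk11 furthest with a bound of -0.42. The intervals of 6 uncalled kinases (Mapk3, Map3k1, Map3k11, Mapk14, Map3k3 and Map3k14) excluded zero before adjustment.

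**Figure D2:**
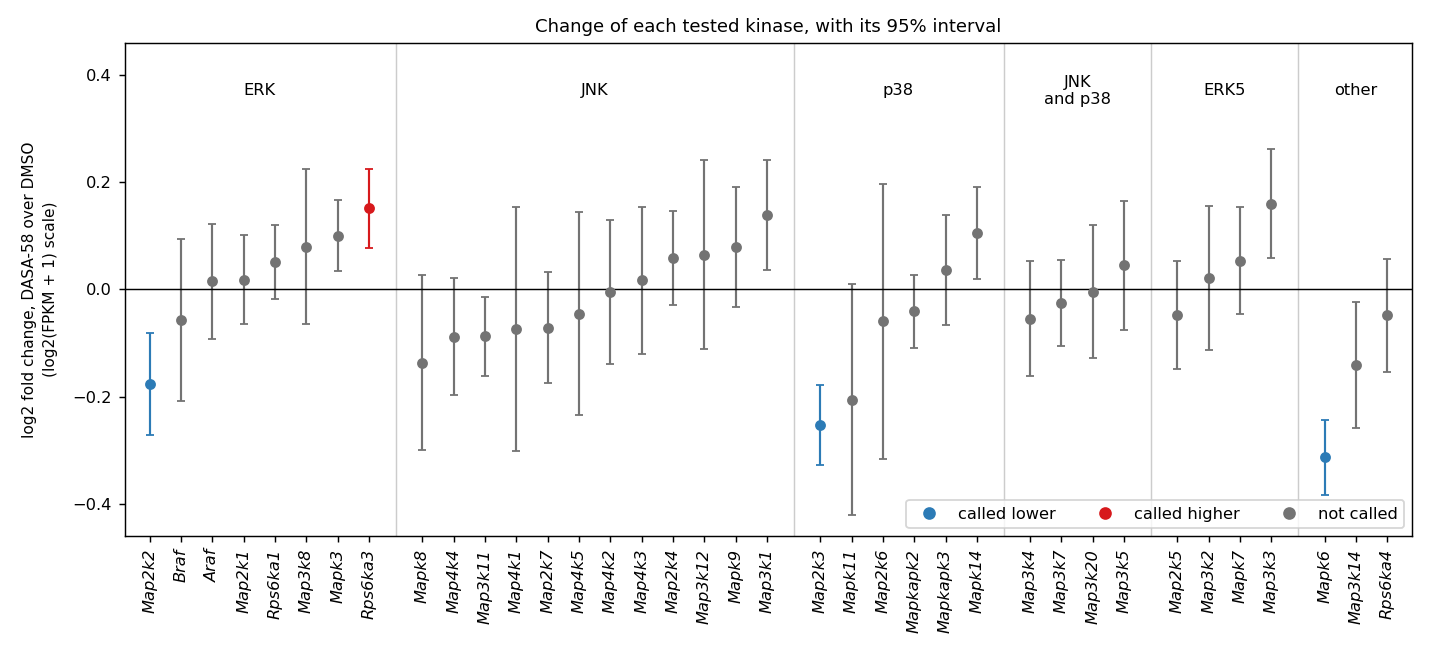
Log2 fold change of DASA-58 over DMSO on the log2(FPKM + 1) scale for the 37 tested kinases, by branch, each point with its 95% interval from the limma fit. Mapk6 (-0.31), Map2k3 (-0.25) and Map2k2 (-0.18) were called lower and Rps6ka3 (0.15) higher, and the other 33 were not called.

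Summed over the 40 kinases, FPKM averaged 728.9 ± 9.42 in the DMSO libraries and 725.0 ± 7.98 in the DASA-58 libraries (SD, n = 3 each). By tier, the MAP2K sum was 144.3, 145.2 and 138.2 FPKM with DMSO and 131.2, 132.7 and 133.9 FPKM with DASA-58, so that the groups did not overlap. The MAPK sum moved the other way, from between 203.6 and 207.8 FPKM to between 211.9 and 216.8 FPKM. These sums are carried by the most abundant members and were not tested. In the MAP2K tier 2 of 7 kinases were called (28.6%, against 11.5% of all genes), and the groups of the other 5 overlapped. The 2 calls were Map2k3 (means 36.05 and 30.11 FPKM) and Map2k2 (32.3 and 28.44 FPKM). Map2k1 (36.38 and 36.86 FPKM), the most abundant MAP2K, did not fall. In the MAPK tier Mapk6 went against the sum (19.88 and 15.8 FPKM).

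In the ERK branch, known for proliferation and survival downstream of M-CSF, 1 of 8 kinases fell and 1 rose (25% called, against 11.5% of all genes), and the median log2 fold change was 0.04. Map2k2 (MEK2, ENSMUSG00000035027, at chr10:81105915-81133975 on the plus strand of GRCm38 in the GENCODE annotation) is 1 of the pair of MAP2Ks that phosphorylate ERK. Its FPKM was 32.4, 33.9 and 30.6 with DMSO and 28.3, 28.8 and 28.2 with DASA-58. Every DASA-58 library lay below every DMSO library, and the log2 fold change was -0.18 ± 0.04 (SE, limma adjusted p = 0.033). That call was lost when DMSO library 1 or 2 or any 1 of the 3 DASA-58 libraries was left out, with limma adjusted p of 0.094, 0.066, 0.093, 0.076 and 0.10 in that order. Without DMSO library 3, the lowest of its group, the limma adjusted p was 0.017.

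The other MAP2K of ERK, Map2k1 (MEK1), measured 36.6, 37.4 and 35.2 FPKM with DMSO and 36.0, 36.6 and 38.03 FPKM with DASA-58. Those groups overlapped, with a log2 fold change of 0.02 and a 95% interval from -0.06 to 0.10. Mapk3 (ERK1), the MAPK of the branch on the list, measured 98.5, 100.2 and 94.7 FPKM with DMSO and 104.5, 104.9 and 105.1 FPKM with DASA-58. Although all DASA-58 libraries lay above all DMSO libraries, the log2 fold change of 0.10 ± 0.03 was not called (limma adjusted p = 0.064).

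Rps6ka3 (RSK2, ENSMUSG00000031309, at chrX:159210307-159368244 on the plus strand), an ERK-activated kinase that phosphorylates transcription factors, measured 14.5, 14.6 and 14.8 FPKM with DMSO and 16.5, 16.2 and 16.4 FPKM with DASA-58. The 3 DASA-58 libraries lay above all 3 DMSO libraries, at 112% of the DMSO mean, with a log2 fold change of 0.15 ± 0.03 (SE, limma adjusted p = 0.022). As with Map2k2, the call was lost without DMSO library 1 or 2 or without any 1 DASA-58 library (limma adjusted p of 0.075, 0.052, 0.076, 0.058 and 0.078). It held without DMSO library 3 (limma adjusted p = 0.042). The related Rps6ka1 (RSK1) was more abundant, at 37.2 ± 0.62 with DMSO and 38.6 ± 0.68 with DASA-58 (FPKM, mean ± SD, n = 3), and was not called. At the head of the branch, the RAF kinases Araf (13.1 and 13.3 FPKM) and Braf (2.21 and 2.09 FPKM) and the MAP3K Map3k8 (TPL2, which activates MEK in macrophages, 4.53 and 4.83 FPKM) had overlapping groups.

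In the JNK branch, a stress-activated branch that phosphorylates JUN, 0 of 12 kinases were called by limma, against 11.5% of all genes. The median log2 fold change was -0.02. At an unadjusted p under 0.05 there were 2 (Map3k1 and Map3k11), and limma with voom weights on the recovered fragments called 1, Map3k1. The MAP2K Map2k4 (MKK4) measured 12.5, 11.7 and 11.9 FPKM with DMSO and 12.7, 12.5 and 12.4 FPKM with DASA-58. Its partner Map2k7 (MKK7) measured 12.1, 11.7 and 11.7 FPKM with DMSO and 10.6, 11.3 and 11.7 FPKM with DASA-58. The groups overlapped for both genes. Of the exonic bases of Map2k7, 35.2% lie also in the gene model Gm49320 on the same strand. Gm49320 has no row in the table, so whether the level of Map2k7 was affected is uncertain.

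The JNK genes themselves were modest in level. Mapk8 (JNK1) measured 2.46, 2.35 and 2.57 FPKM with DMSO and 2.38, 1.97 and 2.102 FPKM with DASA-58, a log2 fold change of -0.14 with a 95% interval from -0.30 to 0.03. Mapk9 (JNK2) measured 9.38, 9.91 and 10.6 FPKM with DMSO and 10.6, 10.3 and 10.8 FPKM with DASA-58, a log2 fold change of 0.08 with a 95% interval from -0.03 to 0.19. DMSO and DASA-58 libraries overlapped for both genes, whose point values stood on opposite sides of zero.

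Upstream of JNK, Map3k1 (MEKK1) lay at 7.59 ± 0.08 with DMSO and 8.47 ± 0.40 with DASA-58 (FPKM, mean ± SD, n = 3) with no overlap (log2 fold change 0.14, limma adjusted p = 0.084). Map3k11 lay at 48.8 ± 1.597 FPKM and 45.9 ± 0.28 FPKM, again with no overlap but in the other direction (log2 fold change -0.09, limma adjusted p = 0.12). Map3k12 (DLK) was barely above the filter at 1.05 and 1.14 FPKM. Genes on the opposite strand overlap 11.8% of the exonic bases of Map3k11 and 19.3% of those of Map3k12. Whether reads were counted by strand is not known. The 5 MAP4Ks, kinases that act on MAP3Ks (Map4k1, Map4k2, Map4k3, Map4k4 and Map4k5), had overlapping groups and log2 fold changes from -0.09 to 0.02. None of them was called, against 11.5% of all genes. None had an unadjusted p under 0.05, and voom called 0.

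In the p38 branch, which is known for inducing MITF-dependent osteoclast genes, 1 of 6 tested kinases fell (16.7%, against 7.28% of all genes called lower) and the median log2 fold change was -0.05. Map2k3 (MKK3, ENSMUSG00000018932, at chr11:60932033-60952811 on the plus strand) is a MAP2K that phosphorylates p38. It measured 37.2, 35.7 and 35.2 FPKM with DMSO and 30.4, 29.7 and 30.2 FPKM with DASA-58. The groups were well apart, with DASA-58 at 83.5% of the DMSO mean and a log2 fold change of -0.25 ± 0.03 (SE, limma adjusted p = 0.003). The call rested on 2124 to 2263 fragments in each DMSO library and 1790 to 1900 in each DASA-58 library, and it held in all 14 alternatives run (limma adjusted p at most 0.031).

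The second MAP2K of p38, Map2k6 (MKK6), was close to the filter, at 0.839, 1.25 and 1.34 FPKM with DMSO and 1.19, 0.974 and 0.980 FPKM with DASA-58. It had 53 to 84 fragments in each library, and the 95% interval of its log2 fold change ran from -0.32 to 0.20. That interval is not a limit of detection, and the log2(FPKM + 1) scale understates changes at so low a level. Of the p38 genes, Mapk14 (p38α) measured 57.4, 56.7 and 58.3 FPKM with DMSO and 65.2, 60.2 and 60.4 FPKM with DASA-58. All its DASA-58 libraries lay above all its DMSO libraries, but the log2 fold change of 0.11 ± 0.04 was not called (limma adjusted p = 0.11). Of the 14 alternatives 1, with voom weights, called Mapk14 higher (limma adjusted p = 0.03).

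Mapk11 (p38β) measured 5.63, 4.26 and 4.48 FPKM with DMSO and 3.74, 3.92 and 4.34 FPKM with DASA-58. The highest DASA-58 library lay above the lowest DMSO library, and the log2 fold change of -0.21 had a 95% interval from -0.42 to 0.01. Mapk13 (p38δ) was near the floor, at 0.433, 0.281 and 0.3995 FPKM with DMSO and 0.351, 0.327 and 0.593 FPKM with DASA-58, from 8 to 17 fragments in each library. Its groups overlapped (two-sided exact permutation p = 0.70, where 3 libraries against 3 cannot go below 0.10). Downstream of p38, Mapkapk2 at 118.5 ± 3.06 with DMSO and 115.2 ± 2.09 with DASA-58 (FPKM, mean ± SD, n = 3) and Mapkapk3 (MK3) at 12.5 and 12.8 FPKM had overlapping groups.

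The list holds 5 MAP3Ks that feed both JNK and p38. Among them Map3k7 (TAK1), the kinase through which TRAF signals reach the MAPKs, measured 9.55 ± 0.07 with DMSO and 9.37 ± 0.05 with DASA-58 (FPKM, mean ± SD, n = 3). Its groups did not overlap, yet the log2 fold change was only -0.03 (limma adjusted p = 0.68). Map3k4 (MEKK4, 5.67 and 5.42 FPKM), Map3k5 (ASK1, 4.62 and 4.80 FPKM) and Map3k20 (ZAK, 3.85 and 3.83 FPKM) had overlapping groups. The untested Map3k6 measured 1.14, 0.945 and 1.16 FPKM with DMSO and 0.888, 0.931 and 0.802 FPKM with DASA-58, every DASA-58 library being lower (two-sided exact permutation p = 0.10, the smallest that 3 against 3 allows).

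The ERK5 branch, a separate line from MEKK2 and MEKK3 through MEK5 to ERK5, had 0 of 4 kinases called by limma. Among all genes 11.5% were called. In the branch 1 kinase had an unadjusted p under 0.05 and voom called 1, both Map3k3. Map3k3 (MEKK3) measured 25.6, 24.3 and 24.8 FPKM with DMSO and 29.6, 27.5 and 26.8 FPKM with DASA-58, the largest positive change of the 37 kinases. The groups did not overlap, and the log2 fold change of 0.16 ± 0.04 had a limma adjusted p of 0.054. Map3k2 (MEKK2, 4.06 and 4.13 FPKM), Map2k5 (MEK5, 12.9 and 12.4 FPKM) and Mapk7 (ERK5, 13.6 and 14.1 FPKM) had overlapping groups.

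The largest change of all belonged to Mapk6 (ERK3, ENSMUSG00000042688, at chr9:75369062-75410005 on the minus strand), an atypical MAPK outside the 3 classic branches. It measured 19.9, 20.01 and 19.8 FPKM with DMSO and 15.7, 15.8 and 15.9 FPKM with DASA-58. Libraries within a group were almost equal, whereas the DASA-58 mean was 79.5% of the DMSO mean, with a log2 fold change of -0.31 ± 0.03 (SE, limma adjusted p = 0.0009). These values came from 2402 to 2518 fragments in each DMSO library and 1919 to 2010 in each DASA-58 library. The call held in all 14 alternatives run (limma adjusted p at most 0.0082). Of the 50-base stretches of its transcripts, 5.03% also occur in the gene model Gm49037, which has no row in the table.

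Mapkapk5, the kinase that ERK3 binds, was listed at only 0.239, 0.465 and 0.447 FPKM with DMSO and 0.482, 0.258 and 0.412 FPKM with DASA-58, from 14 to 29 fragments in each library. These levels are uncertain, since 56.5% of its exonic bases overlap the gene models Adam1a and Gm42878 on the same strand and reads from there can belong to either gene. Map3k14 (NIK, the kinase of alternative NF-κB signaling) lay at 8.28 ± 0.44 with DMSO and 7.41 ± 0.29 with DASA-58 (FPKM, mean ± SD, n = 3) with no overlap (log2 fold change -0.14, limma adjusted p = 0.12). Of the 14 alternatives 1, with voom weights, called Map3k14 lower (limma adjusted p = 0.041). Rps6ka4 (MSK2, a nuclear kinase downstream of ERK and p38) measured 21.0 ± 0.91 and 20.2 ± 0.87 FPKM, with overlapping groups. Its level is also uncertain, since 19.8% of its exonic bases overlap the gene models CAAA01066123.1 and Mir5046 on the same strand.

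Because many steps of the cascade are served by a pair of related kinases, the share of 1 member in the sum of the pair was taken in each library, which does not depend on the scaling between libraries. Map2k1 made up 53.1, 52.4 and 53.5% of Map2k1 plus Map2k2 with DMSO and 55.99, 55.96 and 57.38% with DASA-58. Map2k4 made up 50.8, 49.8 and 50.4% of Map2k4 plus Map2k7 with DMSO and 54.4, 52.5 and 51.4% with DASA-58. In both pairs the share was higher in every DASA-58 library, where that of Map2k4 rests on the uncertain level of Map2k7.

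The share of Mapk8 in Mapk8 plus Mapk9 was 20.8, 19.2 and 19.6% with DMSO and 18.4, 16.01 and 16.3% with DASA-58. Rps6ka1 made up 71.5 to 72.3% of Rps6ka1 plus Rps6ka3 with DMSO and 69.8 to 70.5% with DASA-58, and Mapkapk2 made up 90.3 to 90.7% and 89.9 to 90.1% of Mapkapk2 plus Mapkapk3. In these 3 pairs the share was lower in every DASA-58 library. The shares of Map2k3 (96.3 to 97.8% with DMSO), Mapk14 (90.5 to 92.6%) and Araf (85.0 to 86.3%) in their sets overlapped with those of DASA-58. The shares were not tested, and in the pairs of Map2k4, Mapk8 and Mapkapk2 neither member was called. Shares of other gene pairs were not taken, so how often such groups stand apart is not known. Among single genes tested, the groups did not overlap for 33.4%.

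**Figure D3:**
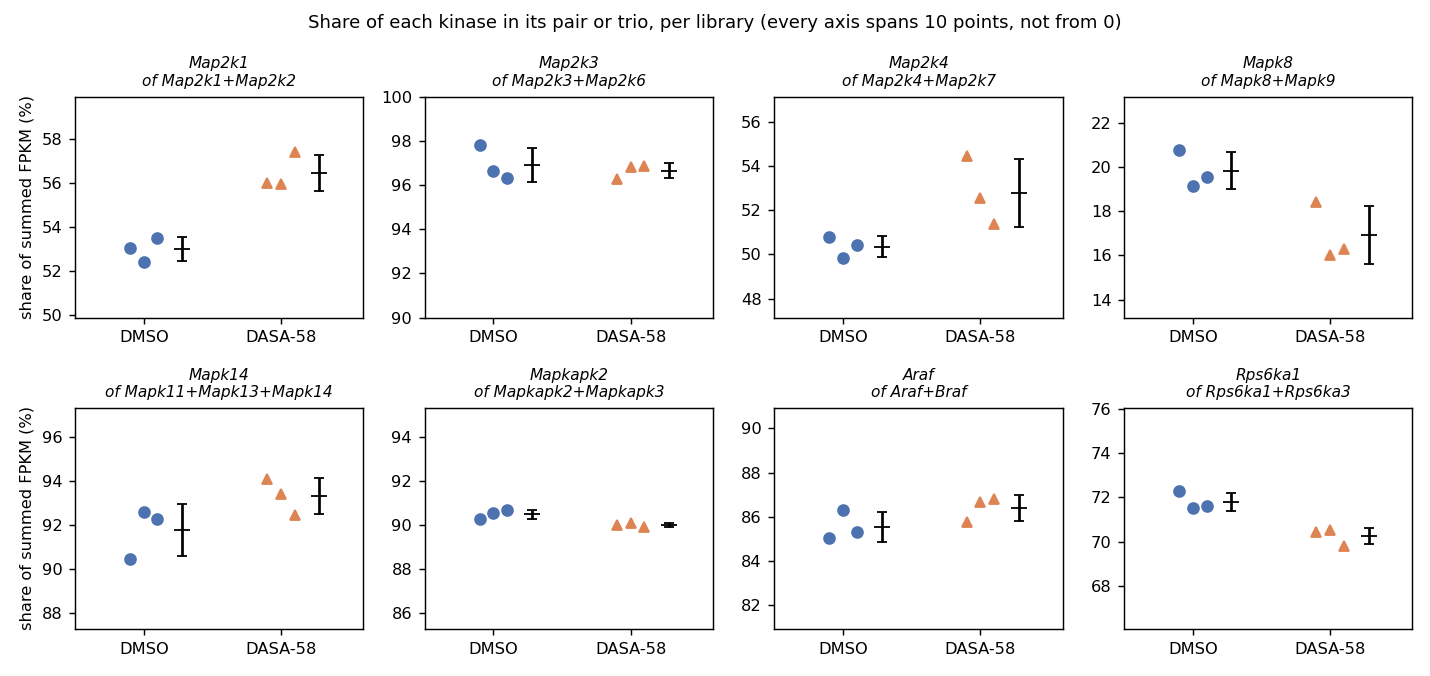
Share of 1 kinase in the summed FPKM of its pair or trio in each library, in percent, with circles for the 3 DMSO and triangles for the 3 DASA-58 libraries, and the mean with its SD beside each group. Every axis spans 10 percentage points and does not start at 0. The groups stand apart for Map2k1, Map2k4, Mapk8, Mapkapk2 and Rps6ka1 and overlap for Map2k3, Mapk14 and Araf.

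Promoter sequences from RefSeq (GRCm38.p6) matched 35 of the 40 kinases. The entries of Mapk3, Map3k2, Map3k8, Map4k4 and Rps6ka3 were not used here. Every motif was searched in the 250 bases before the start. A GC box (GGGCGG on either strand) holds the letters bound by SP-family factors. It was found in 23 of the 35 kinases (65.7%), compared with 32.9% of 27025 promoters. CCAAT on either strand was found in 11 (31.4%, against 34.5% of all promoters). The AP-1 letters TGANTCA were found in 2 (Map2k6 and Rps6ka4, 5.71% against 6.87%) and the CRE letters TGACGTCA in 1 (Braf, 2.86% against 1.62%). The 27025 promoters were not limited to genes tested here. Kinases that were not called, such as Map2k1, Mapk9 and Mapk14, are among the 23 with a GC box. The upstream windows of Mapk6 and Map2k3 are shown because these 2 kinases fell in all alternatives, with GC boxes and CCAAT in capitals. Each holds 3 GC boxes and neither holds TGANTCA. The window of Map2k2, also called lower, is not shown and holds 1 GC box (59.6% G and C). A match is a description of the letters and not a bound site.

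Mapk6 (chr9:75410017-75410266, minus strand, 74% G and C): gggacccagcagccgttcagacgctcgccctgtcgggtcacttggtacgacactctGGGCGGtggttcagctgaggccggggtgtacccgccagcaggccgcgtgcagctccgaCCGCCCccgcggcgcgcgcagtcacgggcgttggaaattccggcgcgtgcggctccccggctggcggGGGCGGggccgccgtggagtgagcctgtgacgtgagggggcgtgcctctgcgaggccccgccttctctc

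Map2k3 (chr11:60931804-60932053, plus strand, 67.6% G and C): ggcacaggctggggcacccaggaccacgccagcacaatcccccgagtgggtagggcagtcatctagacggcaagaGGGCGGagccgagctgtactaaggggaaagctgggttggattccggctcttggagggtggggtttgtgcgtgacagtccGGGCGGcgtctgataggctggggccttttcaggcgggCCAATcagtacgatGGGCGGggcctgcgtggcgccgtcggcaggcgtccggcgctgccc

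The rest of the pathway was described from 6 lists. Above the kinases, 10 receptors and TRAF adaptors were tested, of which 2 fell and 1 rose (30% called, against 11.5% of all genes). Tnfrsf11a, which encodes RANK itself, measured 23.9, 22.1 and 24.5 FPKM with DMSO and 18.6, 18.9 and 18.2 FPKM with DASA-58 (log2 fold change -0.32 ± 0.04, SE, limma adjusted p = 0.0039). Traf1, an adaptor of TNF receptors, measured 23.9 ± 0.41 with DMSO and 17.9 ± 0.87 with DASA-58 (FPKM), so its log2 fold change was -0.40 (limma adjusted p = 0.0012). Tnfrsf1a, the TNF receptor, was higher at 84.1 ± 1.32 and 91.5 ± 2.37 FPKM (log2 fold change 0.12, limma adjusted p = 0.038). The last call was lost when any 1 library other than DASA-58 library 1 was left out (limma adjusted p from 0.075 to 0.13).

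Among RAS and its regulators 2 of 18 tested genes fell (11.1%, against 7.28% of all genes). Rasgrp1, a RAS exchange factor, fell from 1.87 to 1.15 FPKM (log2 fold change -0.41, limma adjusted p = 0.023), and Rasa4, a RAS GTPase-activating protein, fell from 44.3 to 40.6 FPKM (log2 fold change -0.12, limma adjusted p = 0.047). The call of Rasgrp1 was lost without DMSO library 1 or 3 or DASA-58 library 1 or 3 (limma adjusted p from 0.062 to 0.079). The call of Rasa4 was lost without any 1 of the 6 libraries (limma adjusted p from 0.054 to 0.14). Of 16 scaffolds and adaptors tested only Arrb2, which encodes β-arrestin 2, was called (6.25%, against 11.5% of all genes). It rose from 126.6 to 139.6 FPKM (log2 fold change 0.14, limma adjusted p = 0.038), which was lost without DMSO library 1 or any 1 DASA-58 library (limma adjusted p from 0.065 to 0.10).

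Beside the 40 kinases, 14 other MAPK family kinases were tested and 0 were called by limma, against 11.5% of all genes. Of the 14, 1 had an unadjusted p under 0.05 and voom called 1. Their median log2 fold change was 0.02. The groups overlapped for 12 of the 14 and did not for 14.3%, against 33.4% of all genes.

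The MAPK phosphatases, which remove phosphates from MAPKs and so switch them off, had 2 genes lower and 1 higher of 13 tested (23.1% called, against 11.5% of all genes). Dusp6, a phosphatase specific to ERK, measured 10.1, 10.4 and 10.6 FPKM with DMSO and 13.2, 16.8 and 13.4 FPKM with DASA-58 (log2 fold change 0.44 ± 0.08, SE, limma adjusted p = 0.016). The nuclear ERK phosphatase Dusp5 measured 4.41, 4.20 and 3.66 FPKM with DMSO and 2.88, 2.67 and 2.39 FPKM with DASA-58 (log2 fold change -0.48 ± 0.08, SE, limma adjusted p = 0.0081). These phosphatases of the same MAPK thus moved in opposite directions, each without overlap of the groups. Dusp9 fell from 1.99 to 1.45 FPKM (log2 fold change -0.29, limma adjusted p = 0.037). The Dusp9 call was lost with any 1 of the 6 libraries left out (limma adjusted p from 0.061 to 0.11), and the Dusp6 call without DMSO library 1 (limma adjusted p = 0.061).

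At the end of the cascade, 5 of 21 tested transcription factor substrates fell and 0 rose. At an unadjusted p under 0.05 there were 9, and voom called 6 lower and 2 higher. Myc measured 27.4, 27.3 and 24.3 FPKM with DMSO and 16.1, 18.4 and 16.1 FPKM with DASA-58 (log2 fold change -0.62 ± 0.07, SE, limma adjusted p = 0.0012). The AP-1 genes Fosl2 (log2 fold change -0.56, limma adjusted p = 0.00059) and Junb (log2 fold change -0.43, limma adjusted p = 0.0004) fell, as did Fos and Fosl1. The AP-1 gene Jun, named after its values were seen, measured 25.6 ± 1.38 and 28.9 ± 1.27 FPKM (SD, n = 3) with every DASA-58 library higher, and it was not called (log2 fold change 0.17, limma adjusted p = 0.068). Summed over the list, these factors measured 486.1 to 505.0 FPKM with DMSO and 406.5 to 424.7 FPKM with DASA-58. That sum was carried mostly by Junb, with means of 172.4 and 127.8 FPKM, and Fos, with means of 99.6 and 72.9 FPKM. The share of the list that was called was 23.8%, against 10.8% of the kinases and 11.5% of all genes tested, and the median log2 fold change was -0.05. The difference between the lists was not tested.

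**Figure D4:**
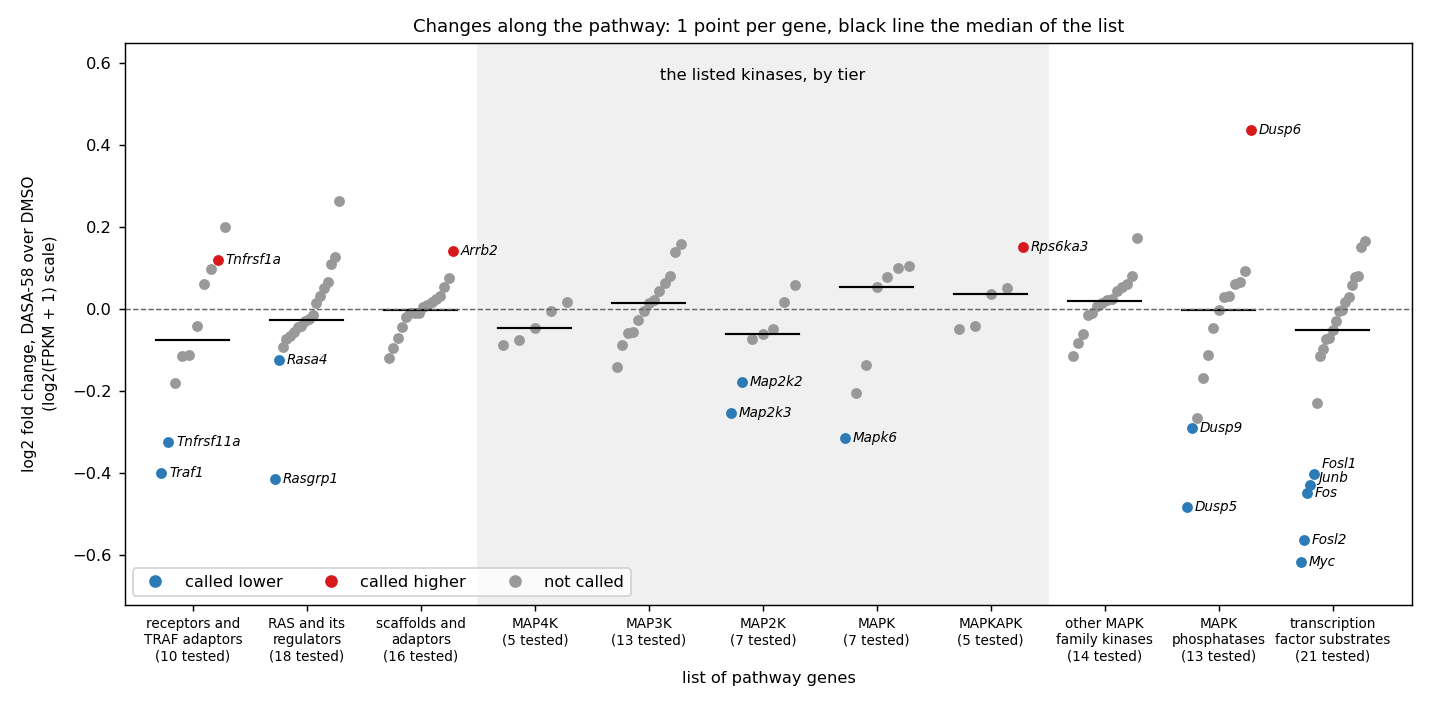
Log2 fold change of DASA-58 over DMSO on the log2(FPKM + 1) scale for the tested genes of each tier of the pathway, 1 point per gene, with the 37 tested kinases of the list on the shaded ground by tier and the median of each list as a black line. Called genes are colored and named. The lowest values belong to Myc (-0.62) and Fosl2 (-0.56) among the transcription factor substrates, whereas the kinases lie between -0.31 and 0.16.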

How the data were processed

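The authors deposited 1 table of FPKM for 23504 genes. The submitters' processing notes list HISAT2 2.1.0, HTSeq 0.6.0 and the mouse build mm8. The annotation and the use of strand were not given in the sources used here, and 0 value columns were left unmapped. Symbols matched 23455 identifiers. Coordinates and overlaps came from GENCODE mouse release 21, since the table has none.

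All 6 libraries were compared on log2(FPKM + 1) with limma 3.58.1 in R 4.3.3 (lmFit, eBayes with a trend), keeping the 10965 genes whose mean reached 1 FPKM, and p-values were adjusted by Benjamini-Hochberg over these genes. Fold changes on this scale understate changes of low genes. Whole fragments were recovered for 99.7% of genes, 21367 (90.9%) being whole within 0.02 fragments at the annotated length and 2060 at a fitted length within 0.005. They served for depth and for voom weights, which were chosen after seeing the data and called 1321 genes lower and 737 higher.

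The 40 kinases, the other lists and the branches were chosen with earlier results of these data known. Values in every library were given for called kinases and for the MAP2Ks and MAPKs of the ERK, JNK and p38 branches, and of each other list up to 3 called genes with the smallest p were named. On simulated data with a log2 change of 0.5, 162 of 200 changed genes were recovered with 14 false calls. The kinases changed less, from -0.31 to 0.16. The simulation therefore does not tell how many changes of that size would be called. Figures were drawn with matplotlib 3.10.9. The study's protein and imaging data were not analysed here. Single values of some other MAPK family kinases are not reported here.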

Additional observations from a re-analysis of the deposited data

How the results depend on the processing

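Mapk6 and Map2k3 were called lower in 14 of 14 alternatives, 13 of them planned. Map2k2 was called lower in 5 and Rps6ka3 higher in 8. The number of kinases called higher, 1 as reported, was 3 with a mean of at least 5 FPKM, 3 with centring on the median, 4 with quantile normalization, 0 with the replicate block, 5 with voom weights and 0 to 1 with 1 library left out. The median log2 fold change of the kinases was 0.0217 with centring, 0.0219 with quantile normalization and from -0.0187 to 0.0171 with 1 library left out, the highest without DASA-58 library 2. Genes called lower over the table numbered 372 without the filter, 504 with centring, 314 without variance shrinkage, 1321 with voom and 385 to 604 with 1 library left out. Genes called higher numbered 257 without the filter, 737 with voom, 227 without variance shrinkage and 273 to 373 with 1 library left out. The cause was not tested.

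Of 37 kinases 10 changed sign in at least 1 alternative, and 27 did not. With centring and with quantile normalization, Map4k2 was at 0.0217 and 0.0219, Map3k7 at 0.0013 and 0.0003, and Map3k20 at 0.0227 and 0.0301. With 1 library left out, the ranges crossing zero were -0.0170 to 0.0496 for Araf, -0.0054 to 0.0380 for Map2k1, -0.1697 to 0.0141 for Map4k1, -0.0526 to 0.0533 for Map4k2, -0.0498 to 0.0568 for Map4k3, -0.1134 to 0.0038 for Map4k5, -0.1655 to 0.0083 for Map2k6, -0.0301 to 0.0202 for Map3k20 and -0.0100 to 0.0557 for Map3k2.

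The labels do not say whether the replicate numbers pair the libraries. The correlation of the deviations of same-numbered libraries was -0.0155, 0.0157 and -0.0162, and that of differently numbered libraries ran from -0.0461 to 0.0608. Deviations from means of 3 libraries cannot decide whether the cultures were paired. The replicate block, which took the kinases called higher from 1 to 0, rests on a shared number alone. Depth limits Mapk13, Mapkapk5 and Map2k6, with at most 84 fragments in a library.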
